A study of Mus musculus with 4 samples.

Results

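The nuclear genes of the mitochondrial ribosomal proteins were examined in mouse macrophages that had met necrotic fat. Members were taken by symbol, as every gene listed under Mrps or Mrpl followed by a number, which gave 77 of the 17013 genes in the deposited values. Of these, 29 were named for the small subunit (Mrps) and 48 for the large subunit (Mrpl). All 29 Mrps genes and 47 of the Mrpl genes reached the level set for testing, at least 0.5 CPM (reads scaled by library size) in 2 or more libraries. The remaining member, Mrpl23, is described by its reads.

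The macrophages were grown with M-CSF from the bone marrow of wild-type male C57BL/6 mice and seeded on Transwell inserts, beneath which freeze-thawed abdominal fat was placed. Con cells met the fat control medium, the middle layer of the fat preparation, and Fat cells met the high-fat-containing medium, its top layer. Both groups received artificial necrotic bone fluid (aNBF), made from freeze-thawed bone and marrow, and both were collected at 24 h, so that neither group was free of necrotic material. RNA was sequenced in 2 libraries per group, to address how uptake of fat changes macrophages in osteonecrosis. The sources used here do not say whether the libraries of a group came from separate mice or cultures, and p-values then measure only the spread between these libraries, which may be technical. The fat preparation may itself carry RNA, and in bulk libraries fewer cells of a type and less RNA per cell cannot be told apart.

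The mitochondrial ribosome translates the few proteins that mitochondrial DNA encodes, all of them subunits of the oxidative phosphorylation complexes. Its RNA comes from the mitochondrial genome, whereas its proteins are encoded in the nucleus, made in the cytosol and imported. The small subunit reads the messenger RNA, and the large subunit joins amino acids and releases the growing chain towards the inner membrane. Some of its proteins have counterparts in bacterial ribosomes and others are found only in mitochondria. Macrophages draw on oxidative phosphorylation to different degrees in different activation states.

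Many of the members whose promoter could be searched carried at least 1 of the letters bound by NRF1, ETS factors or YY1, which are known regulators of nuclear genes for mitochondria. Promoters from RefSeq (GRCm38.p6) were found for 68 of the 77 members, each as 250 bases before and 50 bases after the first listed start. On either strand, GCGCATGCG (NRF1) was in 10.3% of the members' promoters and in 1.81% of all 27025 promoters. Among the promoters of genes in the deposited values, its share was 3.23%. CCGGAAG (ETS) was in 35.3% of the members' promoters, 9.12% of all and 15.5% of those of genes in the deposited values. AAGATGGCG (YY1) was in 11.8% of the members' promoters, 1.49% of all and 2.62% of those of genes in the deposited values. At least 1 of these motifs was in 34 of the 68 promoters (50%), in 11.8% of all promoters, and in 20.1% of the 12200 promoters of genes in the deposited values. GGGCGG (SP1) was in 50% of the members' promoters, between the 35.9% of all promoters and the 59.3% of genes in the deposited values, and CACGTG (E-box) was in 7.35% against 7.24% and 9.52%. By subunit, at least 1 of the NRF1, ETS and YY1 motifs was in 13 of 26 small subunit promoters and in 21 of 42 large subunit promoters. NRF1 letters were in 1 of the 26 and 6 of the 42. A match of letters describes these windows and is not a binding site.

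Promoters are shown for the members with the smallest p in each direction that had an entry, Mrps6 and Mrpl17 on the higher side in Fat and Mrpl27 and Mrpl11 on the lower side. Each is written on the strand of its gene, from 250 bases before to 30 bases after the start, with motif matches on either strand in capitals. The windows lie at chr16:92058086-92058365 (plus strand) for Mrps6, chr7:105811058-105811337 (minus) for Mrpl17, chr11:94653541-94653820 (plus) for Mrpl27 and chr19:4962056-4962335 (plus) for Mrpl11.
Mrps6: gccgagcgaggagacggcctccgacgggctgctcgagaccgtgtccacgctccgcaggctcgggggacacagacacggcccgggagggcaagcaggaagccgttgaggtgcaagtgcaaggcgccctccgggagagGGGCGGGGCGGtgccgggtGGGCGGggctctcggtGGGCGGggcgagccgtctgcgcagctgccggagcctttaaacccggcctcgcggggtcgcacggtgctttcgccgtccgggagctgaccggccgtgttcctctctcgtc
Mrpl17: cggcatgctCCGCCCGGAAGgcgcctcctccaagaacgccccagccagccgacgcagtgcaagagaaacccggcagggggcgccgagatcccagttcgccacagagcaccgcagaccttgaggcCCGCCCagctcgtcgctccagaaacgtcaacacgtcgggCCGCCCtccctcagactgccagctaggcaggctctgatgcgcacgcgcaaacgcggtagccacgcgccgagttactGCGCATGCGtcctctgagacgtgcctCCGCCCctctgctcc
Mrpl27: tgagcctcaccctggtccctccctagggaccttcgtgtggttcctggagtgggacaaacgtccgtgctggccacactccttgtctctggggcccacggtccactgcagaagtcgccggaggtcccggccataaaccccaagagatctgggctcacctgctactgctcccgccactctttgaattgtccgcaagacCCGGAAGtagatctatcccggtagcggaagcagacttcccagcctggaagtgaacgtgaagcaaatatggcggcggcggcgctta
Mrpl11: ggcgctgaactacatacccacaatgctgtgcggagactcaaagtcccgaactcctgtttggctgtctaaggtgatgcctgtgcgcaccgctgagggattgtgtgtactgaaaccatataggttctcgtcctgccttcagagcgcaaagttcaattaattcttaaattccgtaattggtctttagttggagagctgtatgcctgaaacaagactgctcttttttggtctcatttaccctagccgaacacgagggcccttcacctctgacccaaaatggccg
The Mrps6 window held 4 SP1 matches, of which the first pair shared 1 base, and no NRF1, ETS or YY1 letters. The Mrpl17 window held 1 NRF1 match, 1 ETS match and 4 SP1 matches read from the opposite strand, and the first of those overlapped the ETS match. In Mrpl27 there was 1 ETS match, and in Mrpl11 none of the motifs was found. Windows on the higher side were 73.6% (Mrps6) and 68.6% (Mrpl17) G and C, and those on the lower side were 60.4% (Mrpl27) and 48.9% (Mrpl11). Mrpl17 and Mrpl11 were not called, and Mrpl13, which was, had no promoter entry. The G and C content of the other members' promoters was not compared.

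Across the family, most members had similar levels in Con and Fat. The members together took 0.168% and 0.171% of the reads in Con replicates 1 and 2 and 0.165% and 0.174% in Fat replicates 1 and 2, so the groups overlapped. Of the 76 members tested, 1 rose in Fat (Mrps6) and 2 fell (Mrpl13 and Mrpl27). These are 3.95% of the members, beside 9% of all 12470 genes tested, 3.99% of which were called higher and 5% lower (limma, adjusted p under 0.05). Of the calls over all genes, 44.4% were higher in Fat under CPM and 58.2% under TPM (scaled for gene length as well), and both scales gave 1 member called higher and 2 called lower. Under TPM these calls lay close to the threshold, with a limma adjusted p of 0.0496 (Mrps6), 0.0409 (Mrpl13) and 0.0411 (Mrpl27). At an unadjusted p under 0.05 there were 5 members of 76, beside 24.1% of all genes. The median log2 fold change, always Fat minus Con on log2(CPM + 0.1), was 0.01 over the members and 0.01 over all genes tested.

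The members were also counted by the order of their libraries. Fat and Con libraries did not overlap in 35 of the 76 members (46.1%), against 55.6% of all genes tested. Both Fat libraries lay above both Con libraries in 19 members, beside 29.4% of all genes, and below them in 16 members, beside 26.2%. For 70 of the 76 members the 95% interval of the fold change lay within 1.5-fold in either direction. The same held for 9505 of all 12470 genes tested, so narrow intervals were common outside the family as well. Among the 73 members that were not called, 68 had intervals within 1.5-fold, so that for most members a larger difference was outside the interval.

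**Figure D1:**
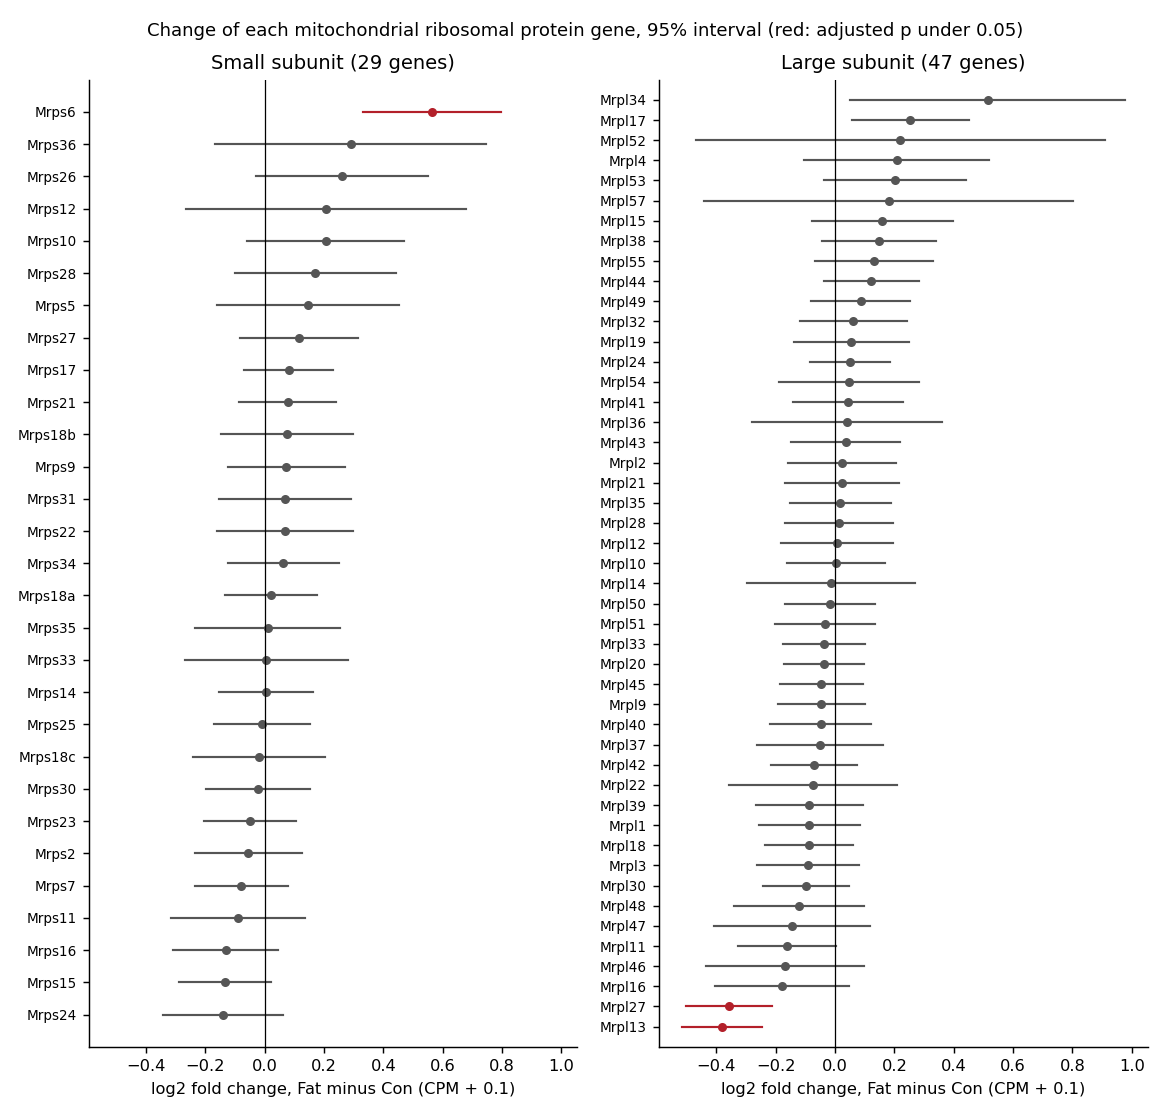
Log2 fold change of CPM + 0.1 (Fat minus Con, horizontal axis) of each of the 76 tested members, small subunit on the left and large subunit on the right, with points for the estimate and bars for the 95% interval from limma. Mrps6 on the higher side and Mrpl27 and Mrpl13 on the lower side, in red, have an adjusted p under 0.05, and most other points lie near 0.

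Mrps6, a small subunit protein with a bacterial counterpart that sits on the platform of the subunit, was the member that rose. Its CPM was 15.0 and 13.4 in Con and 19.6 and 22.5 in Fat. Both Fat libraries lay above both Con libraries. The group means were 14.2 ± 1.19 CPM in Con and 21.1 ± 2.0 CPM in Fat (SD, n = 2 each). This is 1.48-fold, or 0.56 on the log2 scale (SE 0.10, limma adjusted p = 0.0170). Without Fat replicate 2 the log2 fold change was 0.47 and the adjusted p was 0.0648. Without a mean-variance trend in limma the adjusted p was 0.105, and under TPM with the trend it was 0.0496.

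Mrps6 shares exon sequence on the same strand with its neighbour Slc5a3, the sodium/myo-inositol cotransporter. In the GENCODE vM21 annotation, 19.9% of the exon bases of Mrps6 also belonged to exons of Slc5a3 or of Gm49711. Slc5a3 was at 15.5 and 13.97 CPM in Con and at 24.5 and 27.3 CPM in Fat, and its libraries did not overlap either. Its log2 fold change was 0.81 (SE 0.09, limma adjusted p = 0.00447), larger than that of Mrps6. Reads on bases that both genes hold cannot be assigned to one of them from the deposited values, and the part of Slc5a3 in the value of Mrps6 was not tested.

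Mrpl13, a large subunit protein whose bacterial counterpart joins the subunit early in its assembly, fell. It had 48.1 and 47.3 CPM in Con and 36.5 and 36.8 CPM in Fat. The replicates of each medium lay close together and the groups were well apart. The means were 47.7 ± 0.551 CPM in Con and 36.6 ± 0.244 CPM in Fat (SD, n = 2 each). The log2 fold change was -0.38 (SE 0.06, limma adjusted p = 0.0109), or 0.768-fold. The call was kept when any 1 library was left out, with adjusted p from 0.0152 to 0.0375, and was lost without the mean-variance trend (adjusted p = 0.0879).

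The neighbour of Mrpl13 on the opposite strand is Mtbp, and 2.78% of the 75-base stretches of Mrpl13 were found in other genes. Mtbp had 6.49 and 6.37 CPM in Con and 5.87 and 5.29 CPM in Fat and was not called (log2 fold change -0.20, limma adjusted p = 0.341).

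Mrpl27, whose bacterial counterpart reaches into the peptidyl transferase centre where amino acids are joined, fell by a similar amount. It was measured at 34.7 and 35.1 CPM in Con and 27.2 and 27.2 CPM in Fat, with no overlap. The means were 34.9 ± 0.265 CPM and 27.2 ± 0.0561 CPM (SD, n = 2 each). This is 0.780-fold, or -0.36 on the log2 scale (SE 0.06, limma adjusted p = 0.0164). Without Fat replicate 2 the adjusted p was 0.0610, and without the mean-variance trend it was 0.0928. Of its 75-base stretches, 60.6% were also found in other genes, among them Gm6304, so its level is uncertain.

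**Figure D2:**
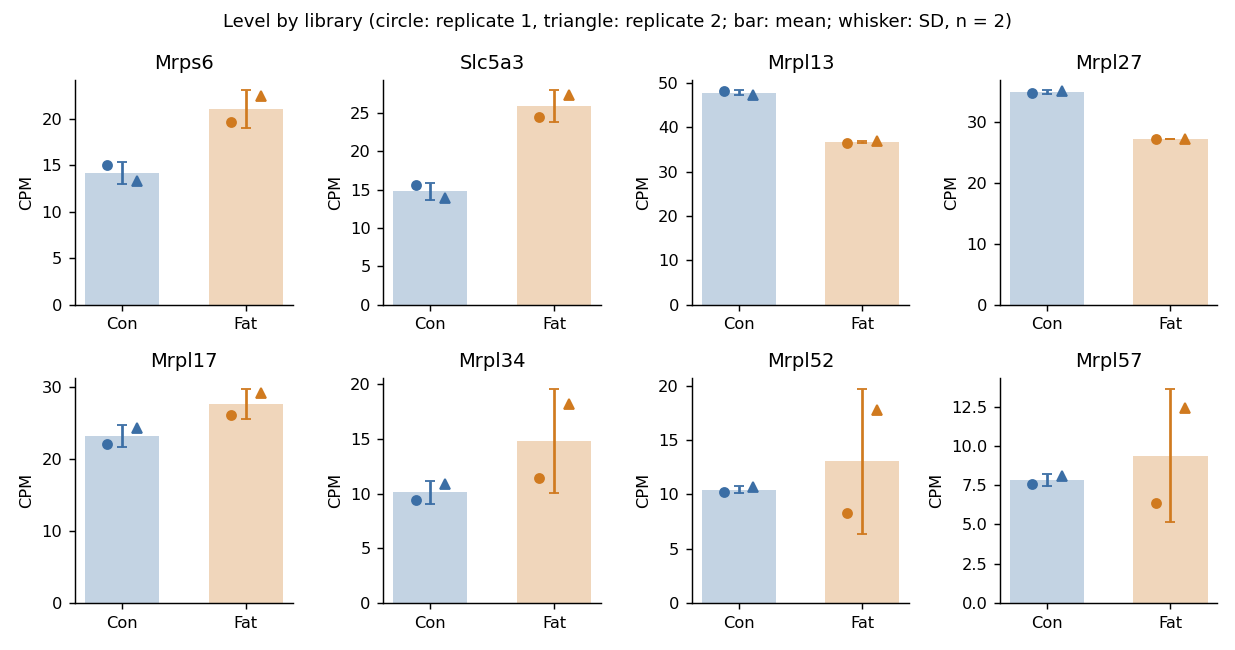
CPM (vertical axis, from 0) of 7 members and of Slc5a3, the neighbour of Mrps6, in Con and Fat. Circles are replicate 1, triangles are replicate 2, bars are means and whiskers are the SD of the 2 libraries, and the Fat libraries of Mrps6, Slc5a3, Mrpl13 and Mrpl27 lie clear of the Con libraries, whereas those of Mrpl34, Mrpl52 and Mrpl57 lie far apart from each other.

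Among members that were not called, Mrpl34 and Mrpl17 stood nearest to the threshold on the higher side of the large subunit. Mrpl34, a small protein with a bacterial counterpart, had 9.38 and 10.8 CPM in Con and 11.5 and 18.2 CPM in Fat. The Fat libraries lay above the Con libraries but differed 1.58-fold from each other, and the log2 fold change was 0.51 (95% interval 0.05 to 0.98, limma adjusted p = 0.166). Without Fat replicate 1 it was 0.84 (adjusted p = 0.00510), and without Fat replicate 2 it was 0.18 (adjusted p = 0.582).

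Mrpl17, also a protein with a bacterial counterpart, had 22.1 and 24.3 CPM in Con and 26.2 and 29.2 CPM in Fat. Its libraries did not overlap, and the log2 fold change was 0.25 (95% interval 0.06 to 0.45, limma adjusted p = 0.116). Next on this side came Mrpl53 at 0.20 (adjusted p = 0.284) and Mrpl38 at 0.15 (adjusted p = 0.330), both mitochondria-specific. Of the 75-base stretches of Mrpl53, 75% were found in the overlapping transcript Gm42688, so its level is uncertain.

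On the lower side of the large subunit, Mrpl11, whose counterpart forms the base of the stalk that elongation factors meet, had 25.4 and 25.3 CPM in Con and 21.9 and 23.4 CPM in Fat. Its Fat libraries lay below its Con libraries, with a log2 fold change of -0.16 (limma adjusted p = 0.220). Mrpl16, next to it, was at -0.18 (adjusted p = 0.310) with no overlap between the groups.

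In the small subunit, the members after Mrps6 on the higher side were Mrps26 at a log2 fold change of 0.26 (limma adjusted p = 0.256), Mrps10 at 0.20 (adjusted p = 0.322) and Mrps36 at 0.29 (adjusted p = 0.422). Mrps26, a mitochondria-specific protein, had 14.6 and 16.4 CPM in Con and 16.4 and 20.9 CPM in Fat, so its lowest Fat library was close to its highest Con library. On the lower side stood Mrps15 at -0.13 (adjusted p = 0.273), Mrps16 at -0.13 (adjusted p = 0.347), Mrps24 at -0.14 (adjusted p = 0.382) and Mrps7 at -0.08 (adjusted p = 0.528). Mrps15 had 29.6 and 28.2 CPM in Con and 26.3 and 26.3 CPM in Fat. With 1 library left out Mrps26 ranged from 0.087 to 0.43, Mrps10 from 0.093 to 0.32 and Mrps36 from 0.12 to 0.46, lowest without Fat replicate 2 for Mrps26 and Mrps10 and without Con replicate 1 for Mrps36. None of these was called, although the libraries of all but Mrps36 did not overlap.

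The small and large subunits were next set against each other. Of 29 small subunit members, 1 rose and 0 fell, 7 had both Fat libraries above Con and 4 below, and the median log2 fold change was 0.06. Of 47 large subunit members, 0 rose and 2 fell, 12 lay above and 12 below, and the median was 0.0026. With 1 library left out the small subunit median ranged from 0.027 (without Con replicate 1) to 0.056 (without Con replicate 2), and that of the large subunit from -0.047 (without Con replicate 1) to 0.027 (without Con replicate 2), with -0.035 without Fat replicate 2. Over all genes tested the median was 0.01, with 3.99% called higher and 5% called lower. Both Fat libraries lay above both Con libraries in 29.4% of all genes tested and below them in 26.2%. Fat and Con libraries did not overlap in 37.9% of small and 51.1% of large subunit members, both under the 55.6% of all genes tested. For the 0 count, the large subunit held 0 higher calls by edgeR's quasi-likelihood test and by DESeq2 as well, and the small subunit 0 lower calls by both; at an unadjusted p under 0.05 there were 4 large and 1 small subunit members in either direction.

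Within each library, the mean log2(CPM + 0.1) of the small subunit was lower than that of the large subunit, by a difference of -0.50 and -0.52 in Con and -0.42 and -0.49 in Fat. The Fat libraries lay above the Con libraries, with means of -0.46 (SD 0.05, n = 2) and -0.51 (SD 0.01, n = 2), which are 0.06 apart. The spread between the 2 Fat libraries was as large as that distance, which was 0.025 without Fat replicate 1 and 0.089 without Fat replicate 2. Without Mrps6, Mrpl13 and Mrpl27, a choice made after seeing the data, the difference was -0.46 and -0.47 in Con and -0.41 and -0.48 in Fat, and the groups overlapped. Mrps6 had been called higher and Mrpl13 and Mrpl27 lower in the same libraries. Leaving them out was therefore bound to narrow the distance between the group means, and no conclusion is drawn from the overlap.

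**Figure D3:**
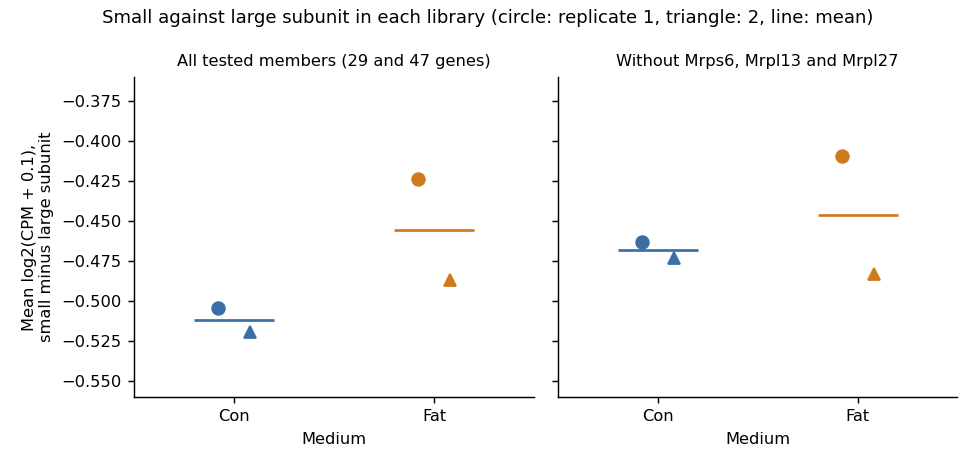
Mean log2(CPM + 0.1) of the small subunit minus that of the large subunit (vertical axis) in each Con and Fat library, for all tested members on the left and without Mrps6, Mrpl13 and Mrpl27 on the right. Circles are replicate 1, triangles replicate 2 and lines the group means, and the groups are apart on the left (Con -0.50 and -0.52, Fat -0.42 and -0.49) and overlap on the right.

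Summed over members as TPM, the small subunit reached 1097 and 1106 in Con and 1145 and 1180 in Fat. The large subunit reached 2393 and 2450 in Con and 2356 and 2515 in Fat. The Fat sums of the small subunit lay above those of Con, while those of the large subunit overlapped. Over all genes tested, the median log2 fold change was 0.04 under TPM and 0.01 under CPM. Summed as CPM, the small subunit reached 519.1 and 532.8 in Con and 533.7 and 544.4 in Fat, so the groups barely separated. The large subunit sums were 1141 and 1190 CPM in Con and 1121 and 1186 CPM in Fat, which overlapped. The ratio of small to large in TPM was 0.458 and 0.452 in Con and 0.486 and 0.469 in Fat. Without the called members it was 0.489 and 0.482 against 0.502 and 0.479, which overlapped.

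Members with bacterial counterparts and mitochondria-specific members were also counted apart. In the small subunit, 1 of 16 members with a counterpart rose (median log2 fold change 0.04), and 0 of 13 mitochondria-specific members were called (median 0.06). In the large subunit, 2 of 29 tested members with a counterpart fell (median 0.0026), and 0 of 18 mitochondria-specific members were called (median 0.0094). All 3 called members had bacterial counterparts, but members with a counterpart were the larger class in each subunit. Their called shares, 6.25% in the small and 6.90% in the large subunit, were below the 9% of all genes tested. Among the mitochondria-specific members, 0 of 13 and 0 of 18 had an unadjusted limma p under 0.05, and 0 were called by edgeR or DESeq2. Members with a counterpart had 1 of 16 and 4 of 29 at that p, beside 24.1% of all genes tested. With a replicate block in the fit, limma called 2520 of all 12470 genes. Of the mitochondria-specific members it then called 1, Mrps26, which was higher in Fat (adjusted p = 0.0276). The difference between the classes was not tested.

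The names of a few members differ from their place in the particle. Mrps30 and Mrps18a, which belong to the large subunit in the assembled ribosome, had log2 fold changes of -0.02 (limma adjusted p = 0.890) and 0.02 (adjusted p = 0.888). Mrps36 is known as a part of the alpha-ketoglutarate dehydrogenase complex. It had 1.80 and 2.32 CPM in Con and 2.30 and 2.76 CPM in Fat, and 38.1% of its 75-base stretches were found in other genes, among them its own pseudogenes.

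Levels between genes were compared per length, as TPM averaged over the 4 libraries. The highest members were Mrpl33 at 201 ± 4.73 TPM and Mrpl20, whose bacterial counterpart is needed early in assembly, at 172 ± 1.94 TPM (SD, n = 4). Mrps21 followed at 136 ± 7.19 TPM and Mrpl42 at 123 ± 2.60 TPM (SD, n = 4). Mrpl33 ranged from 196.5 to 206.6 TPM over the libraries and Mrpl20 from 169.6 to 173.7 TPM, so this pair did not overlap. Mrps21 ranged from 128.9 to 145.4 TPM and Mrpl42 from 119.3 to 125.6 TPM, and they were also apart.

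In the small subunit the levels below Mrps21 were those of Mrps18c at 89.0 ± 6.57 TPM and Mrps16 at 80.7 ± 3.89 TPM (SD, n = 4), whose libraries overlapped. Of the 75-base stretches of Mrps18c, 22% were found in other genes. On the same strand 23.2% of its exon bases also belonged to Gm43511, so its level is uncertain. The lowest members that passed the filter were Mrps36 at 7.03 ± 1.24 TPM, Mrpl57 at 8.14 ± 2.53 TPM, Mrpl17 at 8.32 ± 1.06 TPM and Mrps25 at 8.80 ± 0.265 TPM (SD, n = 4). These neighbours overlapped over the libraries, and 73.1% of the 75-base stretches of Mrps25 were found in other genes, among them Nr2c2, so its level is uncertain. Mrpl17 and Mrps25 were low per length and not in reads, at 22.1 to 29.2 CPM and 23.8 to 25.1 CPM over the libraries. Their longest GENCODE vM21 transcripts held 7300 and 6073 bases, and the part of length in their TPM was not tested. The median over members was 27.5 TPM in the small subunit, 38.8 TPM in the large subunit and 34.8 TPM over both, beside 17.0 TPM over all genes tested.

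Mrpl23, whose bacterial counterpart lies at the exit of the peptide tunnel, was far below the rest. It had 9 and 10 reads in Con and 3 and 9 reads in Fat, at 0.265 and 0.267 CPM and at 0.0804 and 0.220 CPM. At this depth no difference was detectable, and Fat replicate 1 was at the limit of 3 reads that a count of 0 would allow.

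**Figure D4:**
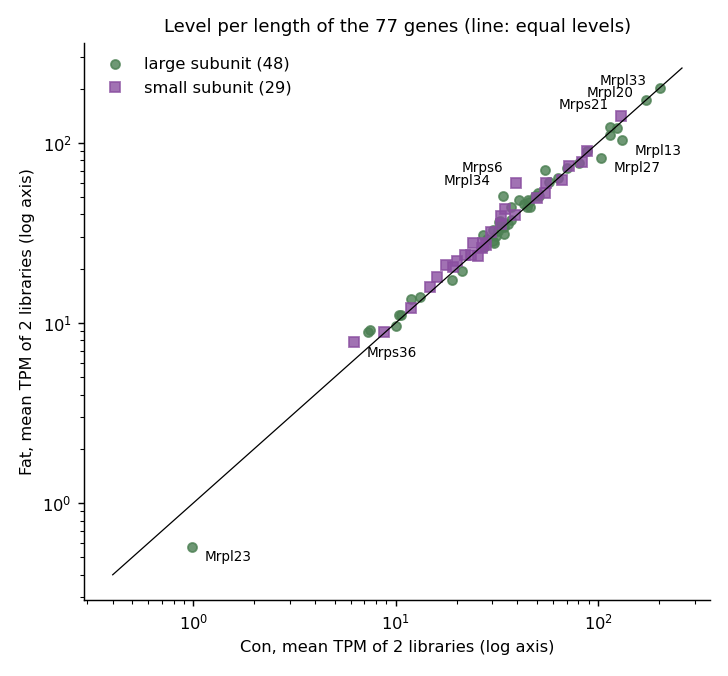
Mean TPM of the 77 members in the 2 Con libraries (horizontal, log axis) against the 2 Fat libraries (vertical, log axis), with squares for the small and circles for the large subunit and a line where both are equal. Mrpl33, Mrpl20 and Mrps21 are at the top, Mrpl23 is at the bottom, Mrps6 and Mrpl34 lie above the line and Mrpl13 and Mrpl27 below it.

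In 6 members the Fat libraries differed more than 1.3-fold from each other. In Mrpl52 the CPM was 10.2 and 10.7 in Con and 8.33 and 17.8 in Fat, a 2.12-fold difference between the Fat libraries. Mrpl57 had 7.58 and 8.10 CPM in Con and 6.38 and 12.4 CPM in Fat, 1.93-fold apart. Both are mitochondria-specific members of the large subunit, and in both the Con libraries lay between the Fat libraries. Mrpl34, Mrps12 (1.44-fold), Mrpl36 (1.34-fold) and Mrpl4 (1.31-fold) were the others. All 6 were higher in Fat replicate 2, whereas 1 member, Mrps12, differed more than 1.3-fold between the Con libraries and was higher in Con replicate 2.

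These 6 were 7.89% of the members and the 1 in Con was 1.32%, beside 8.40% and 7.83% of all genes tested. The log2 difference between the Fat libraries had a Spearman rho of 0.243 with the GC content of the transcripts over the 76 members, and that between the Con libraries had 0.293. Members share a library and its depth, so these are descriptions without a test.

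Lists of genes that work with the mitochondrial ribosome held no calls, beside 9% of all genes tested. Over all genes 24.1% had an unadjusted limma p under 0.05. At the share of all genes, lists this small would hold few calls. In limma 0 of 6 mitoribosome proteins under other symbols were called, and Gadd45gip1, which had the smallest p, was at 0.18 on the log2 scale (adjusted p = 0.590). Of 23 genes for assembly of the ribosome 0 were called, and Mterfd2, an assembly factor of the large subunit, was at -0.21 (adjusted p = 0.193). Of 17 translation factors 0 were called, and Slirp, which stabilizes mitochondrial messenger RNA, was at -0.17 (adjusted p = 0.235). At an unadjusted p under 0.05 these lists held 0, 1 and 0 genes, and edgeR and DESeq2 called 0 in each. Their medians were 0.03, 0.0062 and -0.0036.

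Of 19 genes for charging mitochondrial tRNA 0 were called by limma, beside 9% of all genes tested. Qrsl1, a subunit of the glutaminyl-tRNA amidotransferase, had the smallest p, with 7.28 and 7.60 CPM in Con and 5.65 and 5.61 CPM in Fat. Its libraries did not overlap (log2 fold change -0.40, adjusted p = 0.0656). Of 10 genes for upkeep and transcription of mitochondrial DNA 0 were called, and Peo1, the mitochondrial DNA helicase, was at 0.25 (adjusted p = 0.148). Both lists held 1 gene at an unadjusted p under 0.05 and 0 calls by edgeR and DESeq2, with medians of -0.03 and 0.07.

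Among 8 tested regulators of nuclear genes for mitochondria 0 were called by limma, 0 by edgeR and 0 by DESeq2, with 2 at an unadjusted p under 0.05. Limma called 9% of all genes tested, and 24.1% of them had an unadjusted p under 0.05. Myc had 27.1 and 31.2 CPM in Con and 35.1 and 35.9 CPM in Fat, without overlap (log2 fold change 0.29, adjusted p = 0.0762). Nrf1 was at -0.07 (adjusted p = 0.670), Gabpa at 0.07 (adjusted p = 0.479) and Yy1 at 0.06 (adjusted p = 0.544), the factors whose letters were counted in the promoters. Ppargc1a, a coactivator of mitochondrial genes, had 3 and 3 reads in Con and 0 and 3 reads in Fat and was not tested.

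The ribosome of the cytosol and the oxidative phosphorylation complexes were taken for comparison. Beside them, limma called 9% of all genes tested, and 24.1% had an unadjusted p under 0.05. Of 81 cytosolic ribosomal proteins 1 rose, Rps27a, from 2.24 and 2.32 CPM in Con to 3.67 and 3.61 CPM in Fat (log2 fold change 0.65, limma adjusted p = 0.0359), and 0 fell. DESeq2 called 0 of them, and without Fat replicate 2 the adjusted p of Rps27a was 0.129. Their median was 0.0073 and 10 had an unadjusted p under 0.05. Shared sequence was measured for the mitochondrial members alone, so the level of Rps27a, at a few CPM, is uncertain. Of 79 subunits of oxidative phosphorylation 0 were called by limma, edgeR or DESeq2, with 6 at an unadjusted p under 0.05 and a median of -0.0093. Ndufs4, a subunit of complex I, had the smallest p, at -0.20 (adjusted p = 0.0965). The median over the mitochondrial ribosomal proteins, 0.01, lay beside these, and no difference between the lists was tested.

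**Figure D5:**
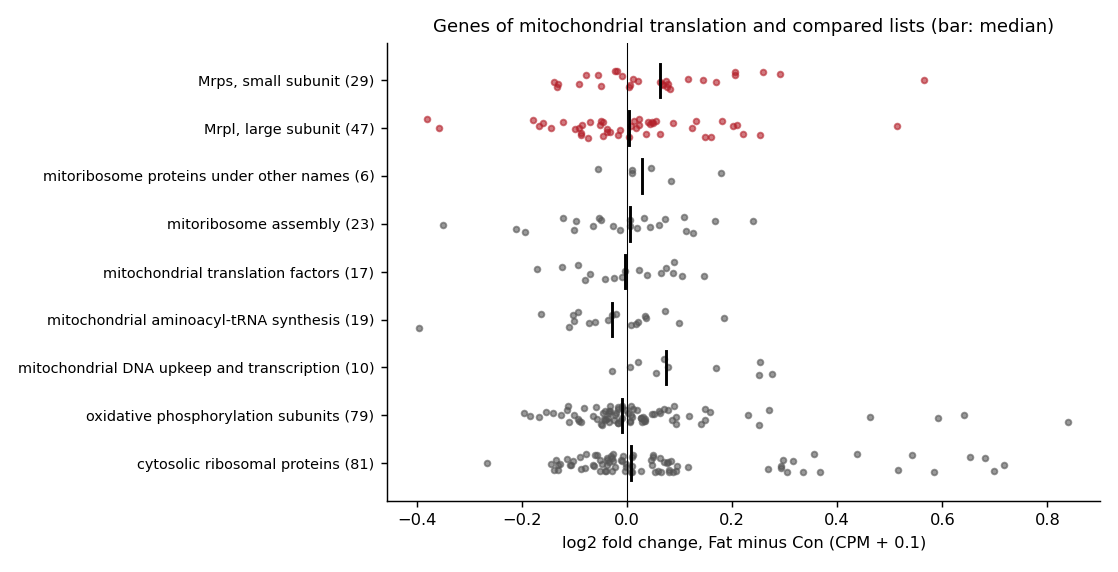
Log2 fold change of CPM + 0.1 (Fat minus Con, horizontal axis) of each tested gene in the small and large subunit (red) and in 7 compared lists (grey), with the number of genes in brackets. Black bars are medians, and all of them lie near 0 while single genes reach further.

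Markers of cell types were measured in the same libraries. All 10 macrophage markers were measured at high levels, and their summed level was 36628 and 34569 CPM in Con and 29109 and 27507 CPM in Fat. Of these markers 2 fell, Fcgr1 (log2 fold change -0.88, limma adjusted p = 0.0123) and Mertk (-0.31, adjusted p = 0.0289, or 0.145 without Fat replicate 2). Of 10 adipocyte markers, summed at 209 and 229 CPM in Con and 201 and 197 CPM in Fat and mostly from Fabp4, Adipoq, Lep, Pck1 and Thrsp were at 0 reads in both Con libraries. In Fat, Adipoq had 28 and 14 reads and Lep 30 and 18 reads, and Cidec had 67 and 47 reads against 0 and 2 in Con. Of the 3 adipocyte markers that passed the filter, Cidec was called higher (limma adjusted p = 0.00440), and Fabp4 and Lipe were not called. Stromal and endothelial markers ranged from 620 to 642 CPM in Con and 519 to 664 CPM in Fat, with Dcn called lower (log2 fold change -0.82, limma adjusted p = 0.0358) of 7 tested. The adjusted p of Dcn was 0.0883 in DESeq2 and 0.112 in limma without Con replicate 1. Neutrophil and lymphocyte markers ranged from 267 to 303 CPM in Con and 260 to 266 CPM in Fat, with 0 of 9 tested genes called by limma, edgeR or DESeq2, 2 at an unadjusted p under 0.05 and all 9 fitted below 0. The 4 listed erythroid markers held 3 to 10 reads per library in sum. The part of these markers in the values of the mitochondrial ribosomal proteins was not tested.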

How the data were processed

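The label of each library, control or high-fat, gave its group. The authors prepared stranded poly(A) libraries, sequenced single reads of 75 bases and deposited CPM values, in which reads are scaled by library size and a further normalization factor, and TPM values, which the authors also scaled for gene length. The submitters' processing notes name GRCm39, and the aligner, annotation and counting settings are not given in the sources used here. The deposited values hold no coordinates, so none are given for genes outside the RefSeq promoter windows.

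Whole reads were recovered from 100% of the CPM values (within 0.01 of a read). Totals were 33573852 to 40785872 reads, and 1 read was worth 0.0244 to 0.0295 CPM, so values of a few reads are imprecise. Fat and Con were compared with limma 3.58.1 (R 4.3.3, with a mean-variance trend, two-sided) on log2(CPM + 0.1) for 12470 genes, those that reached 0.5 CPM in 2 or more libraries, with Benjamini-Hochberg adjustment over all of them and calls at an adjusted p under 0.05. From these reads the quasi-likelihood test of edgeR 4.0.16 called 490 genes higher and 648 lower, and DESeq2 1.42.0 called 456 and 595. An exact permutation test of 2 against 2 libraries cannot go below p = 0.333, so none was run.

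The members and lists were chosen with earlier results of these data known. Named were the called members, the 4 with the smallest p in each subunit and direction, the 3 highest and 2 lowest by TPM in each subunit, Mrps30, Mrps18a, Mrps36 and Mrpl23, and in each list the called genes or the one with the smallest p. Named beyond this, after their values were seen, were Slc5a3, Mtbp, Mrpl52, Mrps12, Mrpl36, Mrpl4, Nrf1, Gabpa, Yy1, Ppargc1a and single markers. S6 kinases and complex I assembly factors, whose symbols resemble the compared lists, were left out. Shared sequence was measured with BWA 0.7.19 on stretches of 75 bases at steps of 5 bases with up to 2 mismatches, against GENCODE vM21 transcripts. The filter was applied anew under TPM, which tested 12641 genes. Alternatives were another pseudocount, filter, scaling, unit or tool, a replicate block, no trend, and each library left out. Figures were drawn with matplotlib 3.10.9, and tables were made with pandas 2.3.3, numpy 2.4.6 and, for rank correlations, scipy 1.17.1 in Python 3.11.15.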

Additional observations from a re-analysis of the deposited data

How the results depend on the processing

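Of 376 values of named members under the alternatives, 351 kept their direction and side of the threshold. Of 92 values of the summaries, 77 moved by less than the limit for their kind (1.5 times for a count, the SD between replicates for a median or difference), and 7 of these changed sign, all of them the large subunit median. The number of genes called, 1122, became 407 of 12641 tested with TPM, where the filter also changed, 31 without the mean-variance trend, 3008 at an unadjusted p under 0.05, and 529 to 1131 with 1 library left out (529 without Fat replicate 2, 666 without Con replicate 1). Members called higher, 1 in the comparison, were 0 without the trend, 3 at the unadjusted p and 0 to 4 with 1 library left out (0 without Fat replicate 2, 4 without Fat replicate 1). Members called lower, 2 in the comparison, were 0 without the trend, 1 to 2 with 1 library left out (1 without Fat replicate 2), and 1 among members with at most 20% shared sequence, chosen after seeing the data, since Mrpl27 shares more. The difference between subunits, 0.06, was 0.022 without the called members, also chosen after seeing the data, a choice that was bound to narrow it. Directions turned under TPM for Mrps18c (0.013), Mrps25 (0.021) and Mrps30 (0.0082), and with 1 library left out for Mrpl57 (-0.29 to 0.65), Mrpl52 (-0.32 to 0.76), Mrps12 (-0.058 to 0.47), Mrpl36 (-0.17 to 0.25), Mrps18a (-0.014 to 0.056), Mrps18c (-0.13 to 0.094) and Mrps25 (-0.047 to 0.027). Except where the construction says otherwise, the cause was not tested.

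A replicate block in the fit gave 2520 calls among the 12470 genes tested, 1278 higher in Fat and 1242 lower. Of these calls, 5 were members higher in Fat and 2 members lower. The higher members were Mrps6, Mrpl34, Mrpl17, Mrps26 and Mrpl4. Among the compared lists it called 2 regulators higher (Myc and Esrra), 9 cytosolic ribosomal proteins higher, 3 oxidative phosphorylation subunits higher and 1 lower (Ndufs4), and 1 gene for charging tRNA lower (Qrsl1). Among the markers it called 3 macrophage, 3 stromal or endothelial and 2 neutrophil or lymphocyte genes lower and 1 adipocyte and 1 endothelial gene higher. The labels give replicates only a number, and the deviations of libraries sharing a number correlated at 0.20 over all tested genes and 0.242 over the members. With 2 libraries per group the spread rests on few values, and a difference that was not called is not shown to be absent. Low members such as Mrpl23 and Mrps36 are limited by their reads.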

Other observations

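Genes of the compared lists included some in which, as in Mrpl52 and Mrpl57, the second Fat library was the highest, picked here after their values were seen. Rplp2, a protein of the stalk of the cytosolic ribosome, had 61.7 and 79.7 CPM in Con and 67.3 and 149.4 CPM in Fat. Cox5b, a subunit of cytochrome c oxidase, had 13.4 and 14.6 CPM in Con and 13.7 and 27.3 CPM in Fat. In both the second Fat library was well above the other 3, and neither was called (limma adjusted p = 0.377 for Rplp2 and 0.353 for Cox5b).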
